A study of Mus musculus with 18 samples.

Results

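The 10 genes described here drive or mark the cell division cycle, and they were chosen by name as Mki67, Top2a, Cdk1, Ccnb1, Ccna2, Ccnd1, Mcm5, Pcna, Birc5 and Rrm2. All 10 were found among the 37319 genes with a value in the table of 18 mouse cortex libraries. The mice were male C57BL/6J animals 8 to 10 weeks old, and the tissue was cortex of the ipsilateral side. Every group had received an adeno-associated virus (AAV) in the left lateral ventricle 4 weeks before surgery, so no group was free of virus, and the short hairpin RNA it carried was driven by the neuronal synapsin promoter. The hairpin was AAV-SYN-shRNA-TIPARP in the Tiparp arm (T) and the scramble AAV-SYN-shRNA-Con in the control arm (C). Surgery was a sham operation or tMCAO, a stroke model that blocks the middle cerebral artery for a time and then lets blood return. Cortex was taken 24 h (R24h_T and R24h_C) or 28 d (R28d_T and R28d_C) after tMCAO, and the sham groups were Sham_T and Sham_C, with 3 libraries in each of the 6 groups. No time between sham surgery and collection is given here, and the same sham libraries serve for both times. Time since surgery and tMCAO thus cannot be fully told apart in the comparisons with sham.

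A cell that leaves rest first makes cyclin D1 (Ccnd1), which with its kinases starts the inactivation of the retinoblastoma protein and frees E2F factors to switch on genes for DNA synthesis. Mcm5, Pcna and Rrm2 belong to that synthesis step, cyclin A2 (Ccna2) acts in S and G2 phase, and Cdk1, cyclin B1 (Ccnb1), Top2a, Birc5 and Mki67 peak in G2 phase and mitosis. In adult cortex neurons do not divide, and the cells that can do so include glial precursors, microglia, astrocytes and vascular cells, several of which proliferate in the days after ischemia.

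The values were FPKM, fragments scaled by transcript length and library size, which allow levels of different genes to be compared per length but hold no read totals, so no counting interval is given. The FPKM sum per library was 334950 to 424157, and mitochondrial genes took 29.2% to 41.6% of it. R24h_T1 (29.2%) and R28d_T1 (31.2%) had the lowest mitochondrial shares of the 18 libraries. Ttr, a choroid plexus gene, was above 500 FPKM in 4 libraries (Sham_T1, Sham_T2, R24h_C3 and R28d_T2) and at most 81.9 FPKM in the others. A fit said below to be without the 4 libraries with high Ttr drops those of them that are in its groups. For 24 h against sham over both arms these were Sham_T1, Sham_T2 and R24h_C3, so Sham_T3 was the only Sham_T library left. Tiparp, the hairpin's target, averaged 4.56 ± 0.39 FPKM in Sham_T against 4.33 ± 0.51 in Sham_C, 4.0 ± 0.997 in R24h_T against 6.64 ± 2.02 in R24h_C, and 3.92 ± 0.17 in R28d_T against 3.94 ± 0.46 in R28d_C (SD, n = 3 each). The FPKM do not show less Tiparp in the Tiparp arm of sham or 28 d cortex, so T and C are used below as the labels of the arms. Cortical neuron markers were present in all 18 libraries, and Snap25, a gene of the synapse, was lowest in R24h_C3 at 179 FPKM.

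Promoters are shown for the 3 mitotic genes Top2a, Cdk1 and Mki67 and for Mcm5 and Pcna. These 3 and these 2 genes were highest in different libraries in the data below. Ccnb1, Birc5 and Rrm2 were highest in the same library as the 3, R24h_T1, and their promoters are not shown. Each window runs from 250 bases before to 50 bases after the start of the gene in RefSeq (GRCm38.p6, another build than the mm9 of the expression values), and 8 of the 10 genes matched an entry, all but Ccna2 and Ccnd1. Top2a is at chr11:99024140-99024439 (minus strand), Cdk1 at chr10:69352863-69353162 (minus), Mki67 at chr7:135716330-135716629 (minus), Mcm5 at chr8:75109259-75109558 (plus) and Pcna at chr2:132253131-132253430 (minus). Capitals mark 3 motifs searched on both strands: the CCAAT box bound by NF-Y (CCAAT or ATTGG), the cell cycle homology region found in promoters of G2 and M genes (the word TTTGAA, which reads on the other strand as TTCAAA, and the palindrome that differs in its middle, TTCGAA), and a strict E2F word (TTTCCCGC, TTTCGCGC, TTTGCCGC or TTTGGCGC, or the reverse complement GCGGGAAA, GCGCGAAA, GCGGCAAA or GCGCCAAA).
Top2a: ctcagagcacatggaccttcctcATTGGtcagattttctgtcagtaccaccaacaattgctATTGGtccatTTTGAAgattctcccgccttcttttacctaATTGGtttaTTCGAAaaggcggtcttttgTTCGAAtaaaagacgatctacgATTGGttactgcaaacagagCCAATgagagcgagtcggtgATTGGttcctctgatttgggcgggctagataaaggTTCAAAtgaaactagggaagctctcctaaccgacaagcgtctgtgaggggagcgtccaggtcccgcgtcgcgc
Cdk1: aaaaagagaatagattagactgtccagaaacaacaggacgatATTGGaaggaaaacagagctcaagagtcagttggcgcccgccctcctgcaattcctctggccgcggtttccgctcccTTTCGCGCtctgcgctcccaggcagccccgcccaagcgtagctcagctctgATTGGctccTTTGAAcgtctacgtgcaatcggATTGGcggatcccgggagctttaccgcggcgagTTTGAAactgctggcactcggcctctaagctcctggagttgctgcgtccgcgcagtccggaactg
Mki67: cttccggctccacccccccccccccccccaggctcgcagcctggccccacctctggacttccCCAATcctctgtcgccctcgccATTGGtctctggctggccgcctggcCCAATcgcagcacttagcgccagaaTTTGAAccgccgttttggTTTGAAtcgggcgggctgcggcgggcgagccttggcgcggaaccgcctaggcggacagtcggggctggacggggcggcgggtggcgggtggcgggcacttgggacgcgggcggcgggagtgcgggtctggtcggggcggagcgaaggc
Mcm5: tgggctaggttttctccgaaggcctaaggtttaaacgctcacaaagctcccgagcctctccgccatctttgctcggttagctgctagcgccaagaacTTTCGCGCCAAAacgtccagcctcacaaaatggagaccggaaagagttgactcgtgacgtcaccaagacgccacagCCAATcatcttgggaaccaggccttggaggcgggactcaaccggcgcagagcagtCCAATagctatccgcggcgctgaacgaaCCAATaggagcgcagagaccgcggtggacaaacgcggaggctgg
Pcna: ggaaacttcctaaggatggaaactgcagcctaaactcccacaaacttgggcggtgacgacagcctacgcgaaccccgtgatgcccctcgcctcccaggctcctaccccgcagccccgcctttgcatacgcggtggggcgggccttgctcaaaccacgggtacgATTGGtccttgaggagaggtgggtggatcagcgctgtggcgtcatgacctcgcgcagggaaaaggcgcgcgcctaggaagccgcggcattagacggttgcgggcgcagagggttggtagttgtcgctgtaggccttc
CCAAT boxes lay in 7 of the 8 matched promoters, all but that of Birc5, against 37.4% of 32851 mouse promoter windows of the same length. Words of the cell cycle homology region lay in 3 of the 8, those of Top2a (4 matches), Cdk1 (2 matches) and Mki67 (2 matches), against 19.2% of all windows. The windows of Ccnb1, Birc5 and Rrm2, which were also highest in R24h_T1, held none of these words. The strict E2F words lay in the windows of Cdk1 (1 match) and Mcm5 (2 matches that overlap in a single run), against 2.26% of all windows. A match is a run of letters and not a shown binding site.

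Ccnd1 and Pcna were higher 24 h after tMCAO than in sham cortex, Mcm5 had the next largest difference without passing the test, and the mitotic genes stayed at trace levels in all but a few libraries. A gene is said to have risen or fallen where limma's test on log2(FPKM + 1) gave a Benjamini-Hochberg adjusted p under 0.05 over the 21863 genes with a mean of at least 0.1 FPKM over the 18 libraries. Of the 10 genes 8 passed that filter, and Cdk1 and Ccnb1 did not. With both arms together (6 libraries against 6), 2 of the 8 rose at 24 h and none fell, against 17.6% of all genes tested (13.6% higher and 3.99% lower). The calls over all genes were 2974 higher and 872 lower, and 2083 higher and 1409 lower after median-ratio scaling. At the level of whole cortex, more cells of a type and more RNA per cell cannot be told apart in these values.

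**Figure D1:**
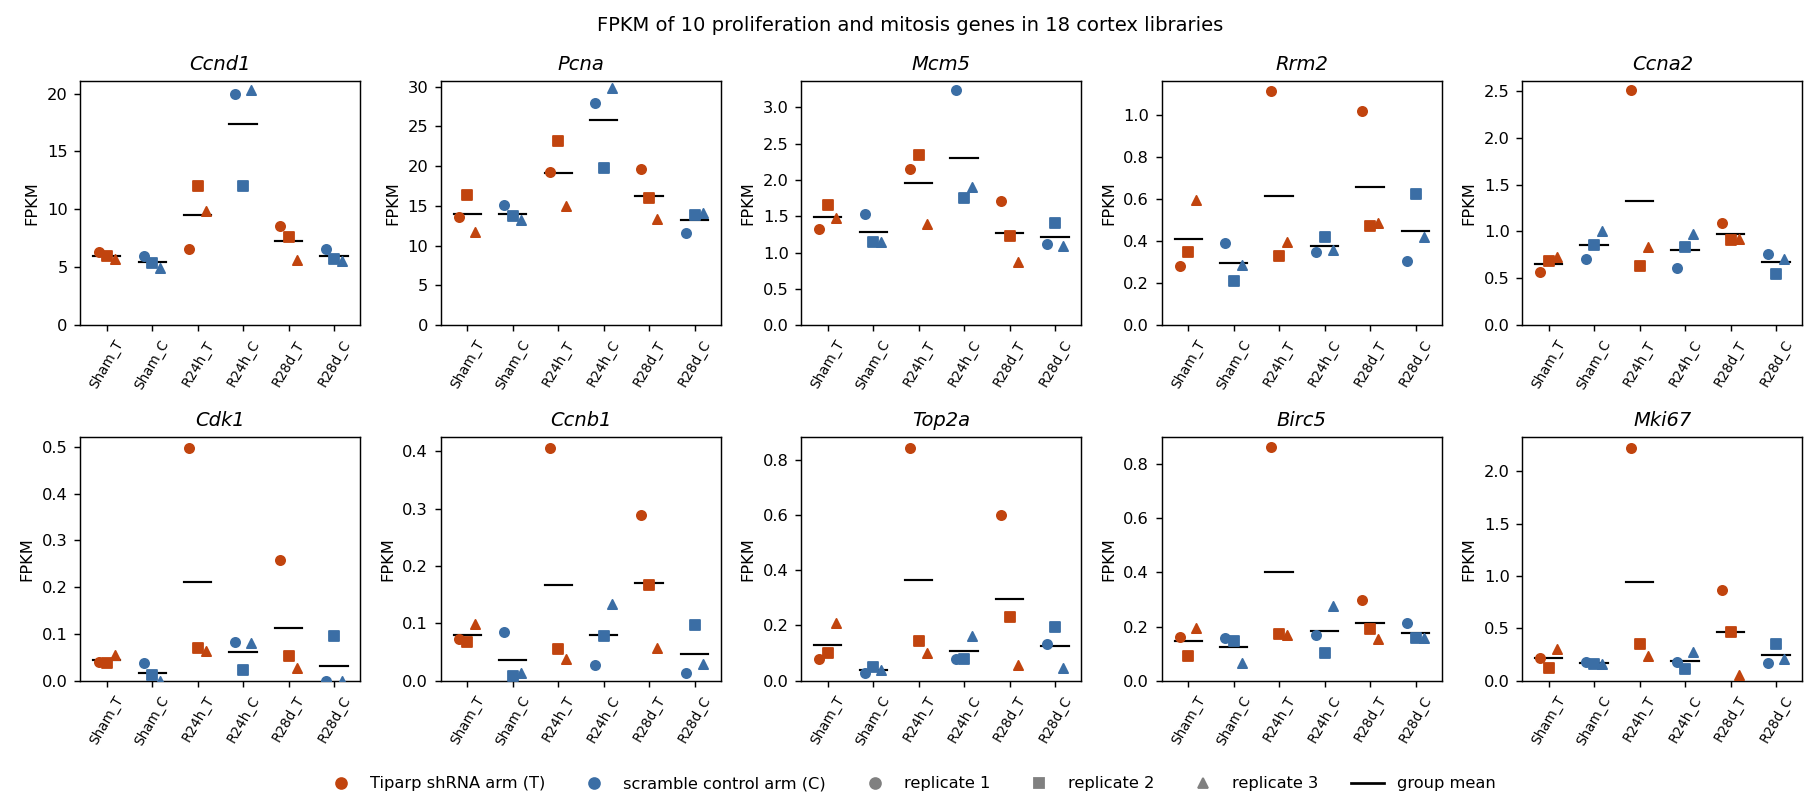
FPKM (vertical axes, each from 0) of the 10 genes in the 18 libraries by group, with the Tiparp arm in orange, the control arm in blue, replicate numbers as symbols and group means as black lines. Ccnd1 and Pcna are highest in R24h_C1 and R24h_C3, and 7 of the 10 genes are highest in R24h_T1.

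Ccnd1 (ENSMUSG00000070348), the G1 cyclin, had 6.62, 12.0 and 9.83 FPKM in the R24h_T libraries (replicates 1, 2 and 3, the order used throughout) and 19.9, 12.0 and 20.3 FPKM in the R24h_C libraries, against 6.30, 5.97 and 5.69 FPKM in Sham_T and 6.00, 5.41 and 4.93 FPKM in Sham_C. All 6 libraries at 24 h lay above all 6 sham libraries, with R24h_T1 only just above Sham_T1. The means were 13.4 ± 5.53 FPKM at 24 h and 5.72 ± 0.491 FPKM in sham (SD, n = 6 each), and the log2 difference was 1.02 ± 0.20 (SE, limma adjusted p = 0.00725). Over the alternatives its adjusted p ranged from 0.000629 to 0.0379. A gene model on the opposite strand (Oraov1, 0.925 to 1.39 FPKM over the 18 libraries) overlaps Ccnd1, and the libraries were made strand-specific, but whether counting used strand is not given in the sources used here.

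Pcna (ENSMUSG00000027342), the sliding clamp of DNA polymerases, was at 19.3, 23.2 and 15.0 FPKM in the R24h_T libraries and at 27.9, 19.8 and 29.8 FPKM in the R24h_C libraries, against 13.6, 16.4 and 11.8 FPKM in Sham_T and 15.1, 13.7 and 13.2 FPKM in Sham_C. R24h_T3 lay inside the sham range, and the other 5 libraries at 24 h lay above it. Pcna differed by 0.62 ± 0.14 on the log2 scale between 24 h and sham (SE, limma adjusted p = 0.0127, with 0.00215 to 0.0388 over the alternatives). The pseudogene Pcna-ps2, whose reads may be shared with Pcna, was at 0.700 to 2.02 FPKM over the 18 libraries. It averaged 1.79 ± 0.194 FPKM in R24h_C against 1.03 ± 0.194 FPKM in Sham_C, and 1.04 ± 0.311 FPKM in R24h_T against 1.04 ± 0.302 FPKM in Sham_T (SD, n = 3 each).

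Mcm5 (ENSMUSG00000005410), a subunit of the MCM helicase that opens replication origins, was at 2.15, 2.35 and 1.39 FPKM in R24h_T and at 3.24, 1.76 and 1.91 FPKM in R24h_C, against 1.32, 1.65 and 1.48 FPKM in Sham_T and 1.54, 1.15 and 1.15 FPKM in Sham_C. Again R24h_T3 lay inside the sham range and the other 5 libraries at 24 h lay above it. The difference of 0.38 ± 0.13 on the log2 scale missed the threshold (SE, limma adjusted p = 0.061, with 0.0152 to 0.138 over the alternatives). It passed without R24h_T3 (0.46, limma adjusted p = 0.0152), with a filter of 1 FPKM in 3 libraries, with all 18 libraries in 1 fit and with array weights.

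Rrm2 (ENSMUSG00000020649), the small subunit of ribonucleotide reductase that makes DNA precursors, did not share this pattern. It was at 1.12, 0.331 and 0.395 FPKM in R24h_T and at 0.348, 0.419 and 0.360 FPKM in R24h_C, against 0.284, 0.350 and 0.598 FPKM in Sham_T and 0.390, 0.212 and 0.285 FPKM in Sham_C. Outside R24h_T1 the 24 h and sham ranges overlapped, and the log2 difference was 0.13 ± 0.11 (SE, limma adjusted p = 0.435).

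Ccna2 (ENSMUSG00000027715), the cyclin of S and G2 phase, was at 2.51, 0.635 and 0.832 FPKM in R24h_T and at 0.612, 0.838 and 0.971 FPKM in R24h_C, against 0.564, 0.687 and 0.724 FPKM in Sham_T and 0.704, 0.853 and 1.001 FPKM in Sham_C. R24h_T1 stood alone above the rest, and the other 5 libraries at 24 h lay inside the sham range. The log2 difference was 0.18 ± 0.17 (SE, limma adjusted p = 0.489). The gene Exosc9 on the opposite strand overlaps Ccna2 and had more reads per length, at 4.27 to 5.65 FPKM at 24 h against 3.37 to 4.05 FPKM in sham, so the level of Ccna2 is uncertain.

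The 5 genes of G2 phase and mitosis were at the bottom of the range. Mki67 (ENSMUSG00000031004), which encodes the proliferation antigen Ki-67 on mitotic chromosomes, was at 2.22, 0.353 and 0.240 FPKM in R24h_T and at 0.179, 0.113 and 0.275 FPKM in R24h_C, against 0.215, 0.119 and 0.304 FPKM in Sham_T and 0.178, 0.157 and 0.161 FPKM in Sham_C. One library, R24h_T1, was far above the others, and the control arm at 24 h overlapped sham. The log2 difference was 0.28 ± 0.20 over both arms (SE, limma adjusted p = 0.361) and 0.06 without R24h_T1 (limma adjusted p = 0.484).

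Top2a (ENSMUSG00000020914), the topoisomerase that untangles sister chromatids, was at 0.843, 0.144 and 0.102 FPKM in R24h_T and at 0.0797, 0.0792 and 0.162 FPKM in R24h_C, against 0.0782, 0.1004 and 0.211 FPKM in Sham_T and 0.0270, 0.0487 and 0.0387 FPKM in Sham_C. Birc5 (ENSMUSG00000017716), or survivin, a member of the chromosomal passenger complex, was at 0.862, 0.172 and 0.169 FPKM in R24h_T and at 0.169, 0.101 and 0.276 FPKM in R24h_C, against 0.160, 0.0898 and 0.193 FPKM in Sham_T and 0.159, 0.146 and 0.0672 FPKM in Sham_C. For both genes R24h_T1 was the highest of the 18 libraries and the other libraries at 24 h overlapped sham. Their log2 differences were 0.16 ± 0.11 for Top2a (SE, limma adjusted p = 0.325) and 0.16 ± 0.11 for Birc5 (limma adjusted p = 0.315).

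Cdk1 (ENSMUSG00000019942), the kinase that starts mitosis, was at 0.497, 0.0694 and 0.0641 FPKM in R24h_T and at 0.0835, 0.0233 and 0.0803 FPKM in R24h_C, against 0.0402, 0.0372 and 0.0551 FPKM in Sham_T and 0.0372, 0.0120 and 0 FPKM in Sham_C. Of the 6 libraries at 24 h 5 lay above all sham libraries, and R24h_C2 lay inside their range. Cdk1 was below the filter of the fit, and an exact two-sided permutation test within arms gave p = 0.015 for the FPKM means of 0.136 at 24 h and 0.0303 in sham. That p is 1 of 30 such tests (10 genes in 3 comparisons) and is not adjusted, and the smallest p these permutations can give is 0.005. Without R24h_T1 the means were 0.0641 and 0.0303 FPKM, with an exact permutation p = 0.035, and with no filter in the fit of all 12 libraries limma's adjusted p for Cdk1 was 0.345.

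Ccnb1 (ENSMUSG00000041431), the cyclin partner of Cdk1, was at 0.406, 0.0545 and 0.0384 FPKM in R24h_T and at 0.0267, 0.0774 and 0.134 FPKM in R24h_C, against 0.0720, 0.0684 and 0.0988 FPKM in Sham_T and 0.0850, 0.00889 and 0.0138 FPKM in Sham_C. The groups overlapped, and the exact two-sided permutation test within arms gave p = 0.375.

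**Figure D2:**
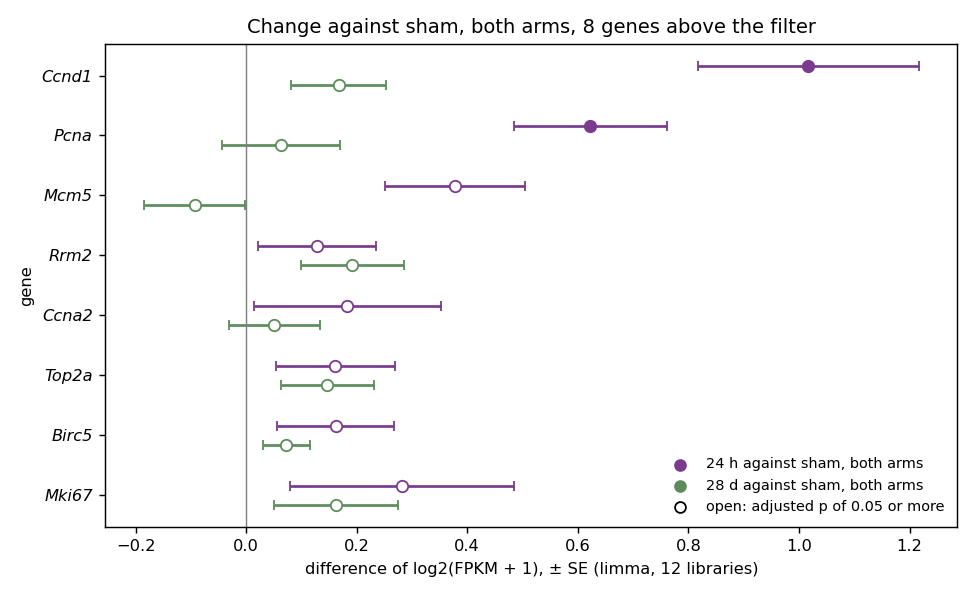
Difference of log2(FPKM + 1) from sham over both arms (horizontal axis, ± SE, limma on 12 libraries) for the 8 genes above the filter, at 24 h in purple and at 28 d in green, with filled points for an adjusted p under 0.05. The filled points are Ccnd1 (1.02) and Pcna (0.62) at 24 h.

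Within the arms, the 24 h change was called in the control arm. In R24h_C against Sham_C 2 of 8 genes rose, against 13.8% of all genes tested (11.6% higher and 2.25% lower, or 2527 and 492 genes, and 1585 and 808 after median-ratio scaling), with log2 differences of 1.48 ± 0.21 for Ccnd1 (SE, limma adjusted p = 0.0171) and 0.82 ± 0.16 for Pcna (limma adjusted p = 0.0305). Mcm5 differed by 0.51 ± 0.19 there (limma adjusted p = 0.117). The count of 2 went to 0 without R24h_C1, without Sham_C1, without Sham_C2 or without Sham_C3, and to 1 without R24h_C3. R24h_C3 is the only library of this comparison with high Ttr, and without it Pcna differed by 0.71 (limma adjusted p = 0.0611). In R24h_T against Sham_T none of the 8 passed limma's test, against 0.00457% of all genes tested, and 1 (Ccnd1) had an unadjusted p under 0.05. The log2 differences in that arm were 0.55 ± 0.20 for Ccnd1 (SE, limma adjusted p = 0.333), 0.42 ± 0.19 for Pcna and 0.54 ± 0.35 for Mki67, and that of Mki67 was 0.10 without R24h_T1.

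The difference between the arms was tested directly and was not called for any of the genes. Between R24h_T and R24h_C, Ccnd1 averaged 9.48 ± 2.71 and 17.4 ± 4.70 FPKM and Pcna averaged 19.2 ± 4.11 and 25.8 ± 5.33 FPKM (SD, n = 3 each), and both ranges overlapped. The log2 differences were -0.81 ± 0.27 for Ccnd1 and -0.41 ± 0.22 for Pcna (SE, limma adjusted p = 0.72 for each). Mki67 differed the other way by 0.56 ± 0.35 (limma adjusted p = 0.724), and by 0.13 without R24h_T1. None of the 8 genes was called at 24 h, where 0% of all genes tested were, and 1 (Ccnd1) had an unadjusted p under 0.05. The 24 h response of Ccnd1 was 0.93 ± 0.30 lower in the Tiparp arm than in the control arm (log2 difference of differences of -0.93, limma adjusted p = 0.463), where again 0% of all genes tested were called. In sham cortex limma called none of the 8 between the arms, none had an unadjusted p under 0.05, and 0.0274% of all genes tested were called (0.0137% in each direction). In 28 d cortex limma again called none of the 8, 1 (Ccna2) had an unadjusted p under 0.05, and 0% of all genes tested were called.

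The one gene with separate arms at 28 d was Ccna2, at 1.09, 0.908 and 0.920 FPKM in R28d_T against 0.757, 0.550 and 0.707 FPKM in R28d_C. The difference of 0.24 ± 0.09 on the log2 scale had a limma adjusted p = 0.984. Exosc9, which overlaps Ccna2, had 3.33 to 3.40 FPKM in R28d_T against 3.56 to 3.92 FPKM in R28d_C. The 28 d response of Ccna2 was 0.40 ± 0.12 higher in the Tiparp arm (SE, limma adjusted p = 0.966), and 0.00915% of all genes tested were called for that difference of responses.

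At 28 d none of the genes was called different from sham, and Ccnd1, Pcna and Mcm5 lay closer to sham than at 24 h. Rrm2 did not, with log2 differences from sham of 0.13 ± 0.11 at 24 h and 0.19 ± 0.09 at 28 d (SE, limma). Ccnd1 was at 8.54, 7.62 and 5.64 FPKM in R28d_T and at 6.56, 5.68 and 5.58 FPKM in R28d_C, and Pcna was at 19.6, 16.03 and 13.3 FPKM in R28d_T and at 11.6, 13.8 and 14.1 FPKM in R28d_C. Mcm5 was at 1.71, 1.22 and 0.874 FPKM in R28d_T and at 1.12, 1.41 and 1.10 FPKM in R28d_C. For these 3 genes both arms overlapped sham, although R28d_T1 lay above all sham libraries. For Ccnd1, R28d_T2 (7.62 FPKM) and R28d_C1 (6.56 FPKM) also lay above the highest sham value of 6.30 FPKM. The log2 differences from sham were 0.17 ± 0.09 for Ccnd1, 0.06 ± 0.11 for Pcna and -0.09 ± 0.09 for Mcm5 (SE, limma). None of the 8 genes was called against sham over both arms, nor did any have an unadjusted p under 0.05, and 0.00457% of all genes tested were called. Their adjusted p values in limma ran from 0.343 (Rrm2) to 0.823 (Pcna). Within the arms limma called none of the 8 either, with 0.0137% of all genes tested called in R28d_C against Sham_C (all of them lower) and 0.00457% in R28d_T against Sham_T, and unadjusted p was under 0.05 for 0 and 1 (Ccna2).

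Set against 24 h, 28 d cortex had less Ccnd1 (-0.85 ± 0.22), Pcna (-0.56 ± 0.17) and Mcm5 (-0.47 ± 0.14) on the log2 scale (SE), but limma's adjusted p was 0.072, 0.096 and 0.0913, so none was called over both arms, against 1.5% of all genes tested. These 3 had an unadjusted p under 0.05. All 3 were called without R24h_T3, the library with the least Pcna and Mcm5 at 24 h, and with all 18 libraries in 1 fit, and Ccnd1 was called without R24h_T1 and R28d_T1 (-1.08, limma adjusted p = 0.0485). In R28d_C against R24h_C the differences were -1.37 ± 0.21 for Ccnd1 (SE, limma adjusted p = 0.0512), -0.90 ± 0.17 for Pcna (0.0631) and -0.56 ± 0.18 for Mcm5 (0.136), where 0.759% of all genes tested were called (31 higher and 135 lower, and 63 and 150 after median-ratio scaling). None of the 8 was called there, 3 had an unadjusted p under 0.05, and 2 were called without R24h_C2. In R28d_T against R24h_T none was called or had an unadjusted p under 0.05, and 0% of all genes tested were called.

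Of the mitotic genes at 28 d, R28d_T1 held the most. Mki67 was at 0.867, 0.467 and 0.0582 FPKM in R28d_T and at 0.166, 0.353 and 0.208 FPKM in R28d_C. Top2a was at 0.600, 0.232 and 0.0582 FPKM in R28d_T and at 0.133, 0.195 and 0.0466 FPKM in R28d_C. Cdk1 was at 0.259, 0.0523 and 0.0266 FPKM in R28d_T and at 0, 0.0954 and 0 FPKM in R28d_C. R28d_T3 had the lowest Mki67 of the 18 libraries, and R28d_T1 had the second highest value of each of these 3 genes after R24h_T1. For Cdk1 the exact two-sided permutation test of 28 d against sham within arms gave p = 0.425, and for Ccnb1 it gave p = 0.215. Ccnb1 reached 0.288 FPKM, Birc5 0.298 FPKM and Rrm2 1.02 FPKM in R28d_T1, and the remaining 28 d libraries were at 0.0134 to 0.167, 0.154 to 0.212 and 0.304 to 0.625 FPKM.

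**Figure D3:**
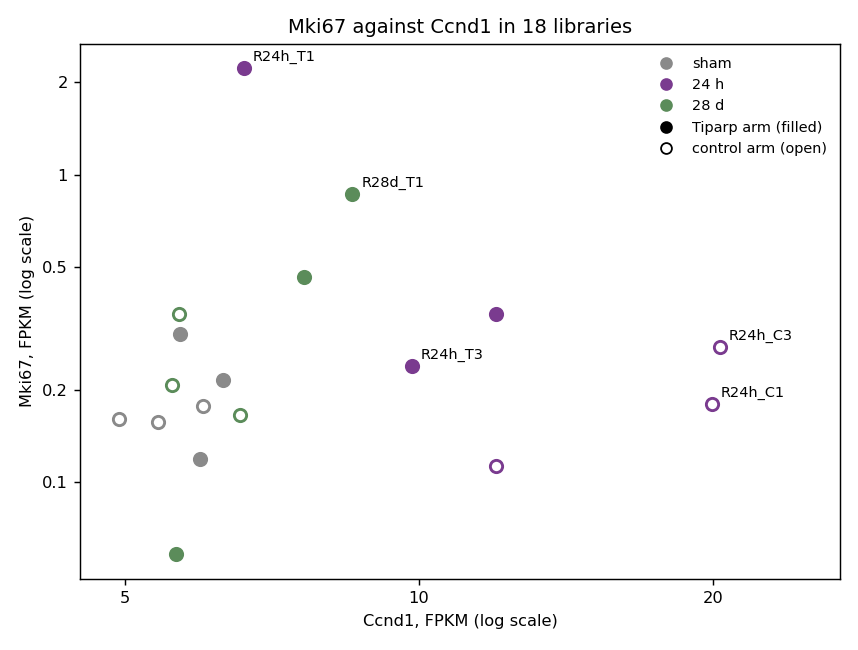
Mki67 against Ccnd1 in FPKM (both axes on a log scale) for the 18 libraries, with filled points for the Tiparp arm and open points for the control arm, coloured by condition. R24h_T1 and R28d_T1 have the most Mki67 (2.22 and 0.867 FPKM) at 6.62 and 8.54 FPKM of Ccnd1, while R24h_C1 and R24h_C3 have the most Ccnd1 (19.9 and 20.3 FPKM) at 0.179 and 0.275 FPKM of Mki67.

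The 10 genes thus fell into sets of 3 and 7 by library, a split made after the values were seen and given without a test. Across the 18 libraries, which share condition and sequencing, Pearson's r between log2(FPKM + 1) values was 0.74 to 0.89 among Ccnd1, Pcna and Mcm5 and 0.66 to 0.96 among the other 7. Between the sets it was -0.09 to 0.45 over the 18 libraries, and -0.39 to 0.63 (median 0.14) without R24h_T1 and R28d_T1. Spearman's rank correlation over the 18 libraries ran from -0.10 to 0.71 (median 0.35) between the sets. Among the other 7 it ran from 0.001 to 0.78 (median 0.57), so by rank the sets were less clearly apart. Without R24h_T1 and R28d_T1 the genes Ccnd1, Pcna and Mcm5 kept Pearson's r of 0.80 to 0.93. Among the other 7 it then ran from -0.37 to 0.79 with a median of 0.43. The likeness of these 7 over 18 libraries thus rests largely on those 2 libraries.

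**Figure D4:**
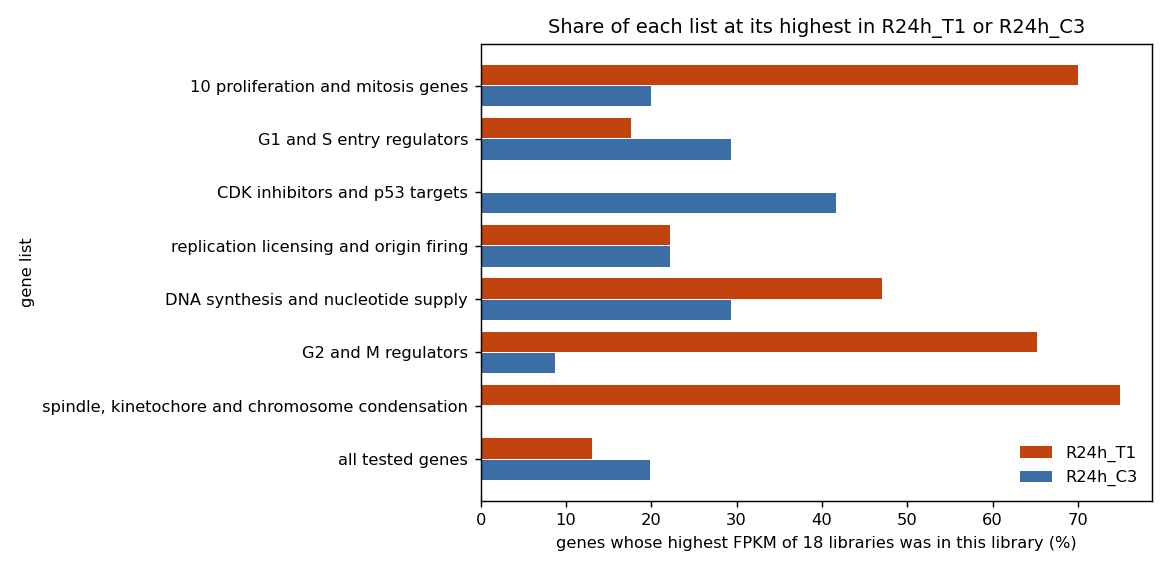
Share of the genes of each list (horizontal axis, %) whose highest FPKM of the 18 libraries was in R24h_T1 (orange) or in R24h_C3 (blue). R24h_T1 held the highest value of 75% of spindle genes and 65.2% of G2 and M regulators, against 13% of all tested genes, and R24h_C3 held that of 0% and 8.7%, against 19.8%. The lists include genes below the filter of the fit, and the share of all tested genes does not.

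R24h_T1 was the highest of the 18 libraries for 7 of the 10 genes, with Ccnd1 and Pcna highest in R24h_C3 and Mcm5 in R24h_C1. The split was not by role alone, since Rrm2 of the DNA synthesis step was among the 7. Other cell cycle genes, in lists chosen with earlier results of these data known, also divided by role only in part. R24h_T1 was highest for 27 of 36 genes of spindle, kinetochore and chromosome condensation and for 15 of 23 G2 and M regulators, against 13% of all tested genes. These list counts include genes below the filter of the fit, and the share of all tested genes does not. Of the 36 and the 23 genes, 29 and 20 passed the filter. It was also highest for 8 of 17 genes of DNA synthesis and nucleotide supply, where R24h_C3 was highest for 5. R24h_T1 was highest for 4 of 18 of replication licensing, for 3 of 17 G1 and S entry regulators and for 0 of 12 CDK inhibitors and p53 targets. R28d_T1 was highest for 4 of the 36 spindle genes and 1 of the 23 G2 and M regulators, against 9.59% of all tested genes.

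R24h_T1 and R28d_T1 both had a low mitochondrial share, but their cell type marker sums differed. In R24h_T1 the 10 endothelial markers summed to 58.7 FPKM with none at 0, inside the range of 21.2 to 66.1 FPKM in the other 24 h libraries, whose highest was R24h_C3. Of the 10 markers 4 were highest of the 18 libraries in R24h_T1, Cldn5 at 20.7 FPKM among them, and 6 were highest in R24h_C3. Apln, another of the 10, was lowest of the 18 libraries in R24h_T1 at 2.13 FPKM. The 6 oligodendrocyte precursor markers summed to 23.7 FPKM in R24h_T1, against 35.6 to 61.3 FPKM in the other 24 h libraries. In R28d_T1 they summed to 61.7 FPKM, inside the range of 42.0 to 72.6 FPKM in the other 28 d libraries. The 9 markers of neuroblasts and ventricular zone progenitors summed to 12.2 FPKM in R24h_T1, the lowest of the 18 libraries. Their sum in R28d_T1 was 31.5 FPKM, the highest of the 18. The 8 homeostatic microglia markers summed to 59.6 FPKM in R24h_T1, inside the range of 36.4 to 64.4 FPKM. Its 10 monocyte and macrophage markers summed to 64.8 FPKM, inside the range of 26.9 to 212.5 FPKM in the other 24 h libraries. In R28d_T1 the 10 monocyte and macrophage markers summed to 621.8 FPKM, of which Lyz2 was 597 FPKM, against 10.96 to 200.6 FPKM in the other 28 d libraries. Of 8 lymphocyte markers 7 were highest of the 18 libraries there, at 0.169 to 2.22 FPKM. Trbc2, the other, was at 6.27 FPKM in R28d_T1 and at 11.3 FPKM in R24h_T3. The 8 summed to 10.3 FPKM in R28d_T1, against 11.2 FPKM in R24h_T2 and 12.5 FPKM in R24h_T3. The 7 reactive astrocyte markers summed to 1434 FPKM in R28d_T1, against 51.8 to 707.3 FPKM in the other 28 d libraries. The part of these cell types, and of the low mitochondrial share, in the mitotic values was not tested.

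The genes whose pattern was most like the mean z-scored level of the 10, over 18 libraries, were Kif20a (r = 0.95), Gpr179 (0.94), Hcst (0.93), Gm4673 (0.92), Tpx2 (0.92), Cep55 (0.92), Ube2c (0.91), Cdca3 (0.91), Tk1 (0.91) and Gimap6 (0.91). Each of them was highest in R24h_T1, for instance Kif20a, a mitotic kinesin, at 0.881 FPKM against at most 0.606 FPKM elsewhere. That follows largely from how they were picked, since 7 of the 10 genes behind the mean are also highest in R24h_T1. Without R24h_T1 and R28d_T1 these r ran from 0.49 (Cdca3) to 0.86 (Gimap6). Of the 10, 5 (Kif20a, Tpx2, Ube2c, Cdca3 and Tk1) were on the cell cycle lists.

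Beyond the 10 genes, 25 of 109 tested genes on the 6 cell cycle lists rose at 24 h over both arms and none fell, against 13.6% higher and 3.99% lower of all genes tested. The median log2 difference over the 109 was 0.17, against 0.06 over all genes tested. The count was 14 without R24h_C1, 16 without Sham_C1, 15 without Sham_C2 or without Sham_C3 and 44 without R24h_T3, and it was 3 without the 4 libraries with high Ttr. In the control arm alone 17 of the 109 rose and none fell, against 11.6% higher and 2.25% lower of all genes tested. In the Tiparp arm limma called none, 9 had an unadjusted p under 0.05, and 0.00457% of all genes tested were called. The 17 went to 0 without R24h_C1 or any 1 Sham_C library, to 6 without R24h_C3 and to 33 without R24h_C2.

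**Figure D5:**
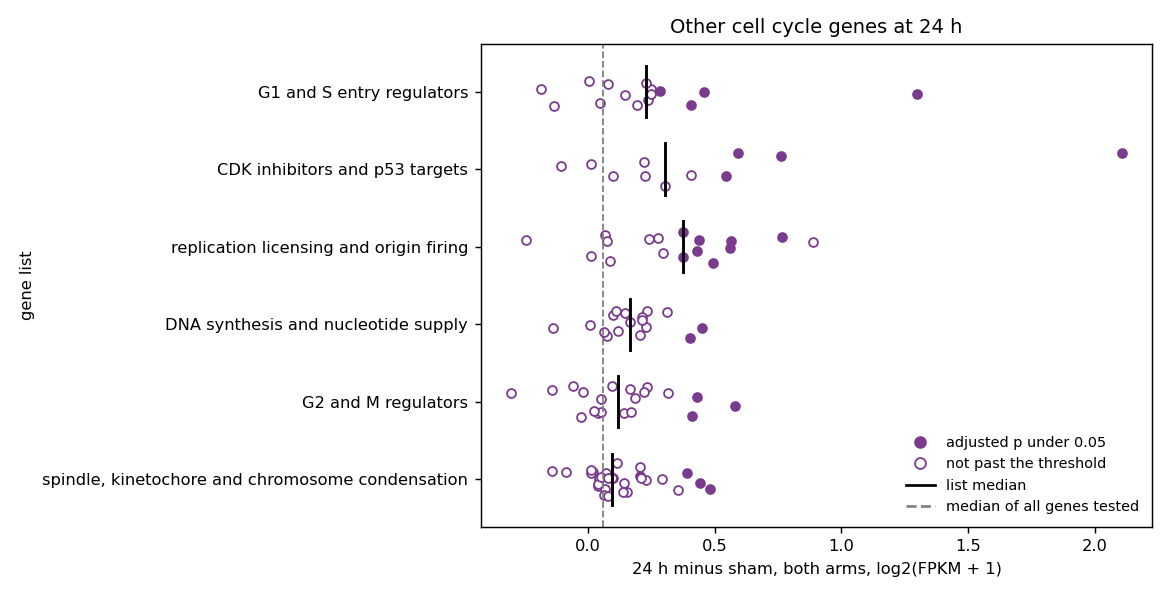
Difference of log2(FPKM + 1) between 24 h and sham over both arms (horizontal axis) for each tested gene of the 6 cell cycle lists, with filled points for an adjusted p under 0.05, black bars for list medians and a dashed line for the median of all genes tested (0.06). Replication licensing has the highest list median (0.37) and the most filled points (8), and the spindle list has the lowest median (0.10).

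Replication licensing, the loading of the MCM helicase onto origins, had the most calls and a list median of 0.37. At 24 h 8 of its 17 tested genes were higher, against 13.6% of all genes tested. Mcm3, a helicase subunit, averaged 1.83 ± 0.627 FPKM at 24 h and 0.640 ± 0.156 FPKM in sham (SD, n = 6 each), a log2 difference of 0.77 (limma adjusted p = 0.00472). Mcm2, another subunit, averaged 1.14 ± 0.410 and 0.427 ± 0.0696 FPKM (0.56, limma adjusted p = 0.00731). Cdt1, the loading factor, averaged 1.18 ± 0.422 and 0.454 ± 0.0838 FPKM (0.56, limma adjusted p = 0.00893), and its inhibitor Gmnn averaged 1.23 ± 0.154 and 0.730 ± 0.207 FPKM (0.37, limma adjusted p = 0.0159). Mcm5 lay at the list's median with 0.38. The count of 8 was 5 without R24h_C1 and 2 without the 4 libraries with high Ttr.

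Of G1 and S entry regulators 4 of 15 tested genes rose, against 13.6% of all genes tested. Myc, a growth factor-induced transcription factor that precedes cyclin D1 in many cells, averaged 4.94 ± 1.93 FPKM at 24 h and 1.34 ± 0.424 FPKM in sham (SD, n = 6 each, log2 difference 1.30, limma adjusted p = 0.00137), with every 24 h library above every sham library. The retinoblastoma relative Rbl1 differed by 0.28, Cdk2 by 0.41 and Cdk6, a kinase partner of cyclin D1, by 0.46 (limma adjusted p = 0.0145, 0.0262 and 0.0376). Leaving out R24h_C1, Sham_T3 or any 1 Sham_C library gave 2 calls in place of 4, and leaving out the 4 libraries with high Ttr gave 1.

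Of CDK inhibitors and p53 targets 4 of 11 tested genes rose, against 13.6% of all genes tested, and 1 of the 4 is a CDK inhibitor. Cdkn1a, which encodes the CDK inhibitor p21, averaged 65.8 ± 39.5 FPKM at 24 h and 11.4 ± 4.77 FPKM in sham (SD, n = 6 each, log2 difference 2.11, limma adjusted p = 0.0142), and its 24 h libraries ran from 5.95 to 122.3 FPKM. The p53 gene Trp53, the p53 target Ccng1 and the p53 inhibitor Mdm2 differed by 0.59, 0.76 and 0.54 (limma adjusted p = 0.0119, 0.0263 and 0.0474). The count of 4 was 2 without R24h_C1, without Sham_T3 or without any 1 Sham_C library, and 0 without the 4 libraries with high Ttr.

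The 3 remaining lists are to be read against the 13.6% of all genes tested that were called higher, and their shares of called genes were near it. In DNA synthesis and nucleotide supply 2 of 17 tested genes rose, the clamp loader subunit Rfc3 (0.40, limma adjusted p = 0.0174) and Uhrf1 (0.45, limma adjusted p = 0.0219), which maintains DNA methylation at replication. The count was 1 without R24h_C1 or any 1 Sham_C library and 10 without R24h_T3. Of G2 and M regulators 3 of 20 rose, Cks1b (0.58), Pttg1 (0.43) and Cks2 (0.41, limma adjusted p = 0.0157, 0.0321 and 0.0345), and Cks1b and Cks2 are small subunits that bind cyclin-dependent kinases while Pttg1 is securin. The count of 3 was 1 without R24h_C1, R24h_C3, Sham_C2 or Sham_T3, 6 without R24h_T3, and 1 after median-ratio scaling. Of spindle, kinetochore and condensation genes 4 of 29 rose, Smc4 (0.48), Ckap2 (0.44), Tpx2 (0.39) and Spc25 (0.21, limma adjusted p = 0.00654, 0.0147, 0.0243 and 0.0437), and the count was 2 without Sham_C3 or Sham_T3 and 4 without R24h_T1. Without the 4 libraries with high Ttr each of these 3 lists had 0 calls.

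By 28 d no gene of the 6 lists was called against sham over both arms by limma, and 13 had an unadjusted p under 0.05. Against 24 h 3 genes fell by 28 d over both arms, against 0.64% of all genes tested, namely Myc (-0.97), Gmnn (-0.41) and Rfc4 (-0.36, limma adjusted p = 0.0463, 0.043 and 0.0445), and none rose. These 3 calls were lost without any 1 of 10 of the 12 libraries, and without R24h_T3 there were 17. In R28d_C against R24h_C 1 gene of the lists fell, Cdkn1a (-2.81, limma adjusted p = 0.0475), and the count was 0 without any 1 library but R24h_C2 and 20 without that one. No gene of the lists was called between the arms in sham, at 24 h or at 28 d, or for a difference of responses, where limma gave 8, 5, 3, 7 and 6 unadjusted p under 0.05. The share of all genes with an unadjusted p under 0.05 is not given here, so nothing is read from these counts.

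Markers of several other cell types were also higher at 24 h than in sham, and their order over the libraries matched that of Ccnd1 only in part. The 10 monocyte and macrophage markers summed to 26.9 to 124.9 FPKM in R24h_T and 41.6 to 212.5 FPKM in R24h_C, against 10.4 to 10.99 FPKM in Sham_T and 7.96 to 8.56 FPKM in Sham_C, and none was at 0 at 24 h. The 7 reactive astrocyte markers summed to 219.6 to 715.8 FPKM in R24h_T and 856 to 1173 FPKM in R24h_C, against 37.4 to 62.6 FPKM in Sham_T and 40.2 to 49.0 FPKM in Sham_C. The 10 endothelial markers summed to 21.2 to 58.7 FPKM in R24h_T and 29.2 to 66.1 FPKM in R24h_C, against 15.0 to 17.7 FPKM in Sham_T and 12.6 to 14.3 FPKM in Sham_C. R24h_T3, where Pcna and Mcm5 lay inside the sham range, had the lowest of these sums at 24 h. Its Ccnd1 was at 9.83 FPKM. R24h_T1 had less Ccnd1 (6.62 FPKM) with higher sums, 58.7 FPKM for endothelial and 715.8 FPKM for reactive astrocyte markers. The 8 neutrophil markers summed to 4.08 to 22.5 FPKM in R24h_T and 21.7 to 199.5 FPKM in R24h_C, against 0.251 to 0.635 FPKM in Sham_T and 1.11 to 1.41 FPKM in Sham_C, with Elane, a granule protease of immature neutrophils, at 0 in all of them. The highest neutrophil sum was that of R24h_C3, where Ccnd1 and Pcna were highest and Ttr was at 1682 FPKM. Neutrophil sums were 199.5, 39.5, 22.5 and 21.7 FPKM in R24h_C3, R24h_C1, R24h_T2 and R24h_C2, where Ccnd1 was at 20.3, 19.9, 12.0 and 12.0 FPKM. R24h_T1 and R24h_T3 had neutrophil sums of 20.2 and 4.08 FPKM at 6.62 and 9.83 FPKM of Ccnd1. In R24h_C3 the 8 striatal neuron markers summed to 393 FPKM, against 75.1 to 129 FPKM in the other 24 h libraries and up to 319 FPKM in sham, and 7 of the 8 were highest of the 18 libraries there. Its 8 cortical neuron markers summed to 509 FPKM, the lowest of the 18 libraries. Without the 4 libraries with high Ttr, R24h_C3 among them, Ccnd1 and Pcna stayed called over both arms (1.07 and 0.68, limma adjusted p = 0.0379 and 0.0388). The part of the cell types and of striatal tissue in the 24 h values was not tested.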

How the data were processed

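Poly(A) RNA was sequenced in strand-marked, paired-end libraries, per the labels' protocols. The authors deposited FPKM per gene for 37319 genes, and the submitters' processing notes name HISAT, StringTie, edgeR and mm9 without their roles or versions. Read totals were not used here.

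From the deposited FPKM, log2(FPKM + 1) went into limma 3.58.1 with an intensity trend and moderated variances (R 4.3.3). There were 14 comparisons, all two-sided, each fitted on the libraries of its own groups, with the arm as a covariate where both arms were joined. Genes needed a mean of at least 0.1 FPKM over the 18 libraries (21863 genes), so a low gene can pass through 1 high library, and p was adjusted by Benjamini-Hochberg at 0.05. Adding 1 shrinks the log2 difference of a low gene. The fit was also run on simulated data with normal noise and, for each gene, the same spread in every group, whereas the spread here differs between groups. That run cannot speak to genes that are high in 1 library, and no result above rests on it. Tables and figures used Python 3.11.15, pandas 2.3.3, numpy 2.4.6 and matplotlib 3.10.9.

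The 10 genes and all lists were chosen with earlier results of these data known. The text names the 10 genes, up to 4 called genes per list by adjusted p, else the 2 of smallest p, the 10 genes of highest likeness, and markers with the highest FPKM or at 0. Genes called at 28 d against 24 h and Ttr were added after their values were seen. For 62 entries that repeat a symbol, the entry of highest mean was kept. GENCODE vM21 (GRCm38), which holds 37225 of the gene IDs, gave the overlapping gene models. Whether each library is a separate mouse is not in the labels, so p measures the spread between libraries, which may be technical, and 0 pairs of libraries held identical values. Alternatives were a pseudocount of 0.1, a filter of 1 FPKM in 3 libraries, no filter, median-ratio scaling, the replicate block, all 18 libraries in 1 fit, array weights and each library left out. Added after seeing the data were fits without R24h_T1 and R28d_T1 and without the 4 libraries with Ttr above 500 FPKM.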

Additional observations from a re-analysis of the deposited data

How the results depend on the processing

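Ccnd1 and Pcna stayed called at 24 h over both arms under every alternative run. Of the values of single genes, 313 kept direction and call when a library was left out, 9 lost the call, 6 gained it and 2 turned round. Under the other alternatives 238 kept both, 3 lost the call, 20 gained it and 1 turned round. The turns were all at 28 d against sham over both arms, Pcna (-0.00 without Sham_T3 and -0.01 without R28d_T1, -0.01 to 0.12 with 1 library left out, against 0.06) and Ccna2 (-0.04 without the 4 libraries with high Ttr, against 0.05).

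At 24 h over both arms, leaving out the 4 libraries with high Ttr gave 3 calls on the 6 lists together against 25, with 1 for G1 and S entry, 0 for CDK inhibitors and p53 targets, 2 for licensing and 0 each for DNA synthesis, G2 and M, and spindle genes. The filter of 1 FPKM in 3 libraries gave 2 for G1 and S entry, 1 for DNA synthesis and 1 for spindle genes. With no filter there were 2 for G1 and S entry and 1 for G2 and M, median-ratio scaling gave 1 for G2 and M, and all 18 libraries in 1 fit gave 6 for DNA synthesis. With 1 library left out the calls were 2 to 3 of the 10 genes, 14 to 44 on the lists together, 2 to 6 for G1 and S entry, 2 to 5 for CDK inhibitors, 5 to 11 for licensing, 1 to 10 for DNA synthesis, 1 to 6 for G2 and M and 2 to 6 for spindle genes.

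At 28 d against 24 h over both arms, 3 of the 10 genes were called with all 18 libraries in 1 fit, 3 with array weights and 1 without R24h_T1 and R28d_T1, against 0. List calls were 16 with all 18 libraries, 11 with array weights, 1 without R24h_T1 and R28d_T1, and 0 with no filter or without the high-Ttr libraries, against 3. With 1 library left out they ran from 0 to 3 for the 10 genes and 0 to 17 for the lists. In the control arm at 28 d against 24 h, the 10 genes had 1 call with a pseudocount of 0.1, 2 with the filter of 1 FPKM, 1 after scaling, 2 with all 18 libraries and 3 with array weights, against 0. The lists there had 3 with the filter of 1 FPKM, 0 with no filter, 12 with all 18 libraries and 36 with array weights, against 1. They had 0 without R24h_C3, the only high-Ttr library in that comparison. The ranges with 1 library left out were 0 to 2 and 0 to 20.

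In the control arm at 24 h, 1 of the 10 genes was called without R24h_C3, the only high-Ttr library there, against 2. List calls were 9 with no filter, 53 with array weights and 6 without R24h_C3, against 17. With 1 library left out these were 0 to 2 and 0 to 33. List calls in the Tiparp arm were 0 to 5 at 24 h and 0 to 2 at 28 d against sham with 1 library left out, and 5 at 28 d with array weights. Over both arms at 28 d against sham they were 0 to 4, with 4 without R28d_T3. Causes of these shifts were not tested, beyond the fewer libraries or other gene sets in a fit.

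Replicate numbers did not pair the libraries: 3 of 45 same-numbered pairs had deviations with r over 0.1 (-0.4 to 0.189). With the replicate block, 2 of the 10 genes and 21 list genes were called at 24 h over both arms, 0 and 0 in the control arm at 24 h, 0 list genes at 28 d against 24 h over both arms and 0 in the control arm there. FPKM of 0.1 or less in the mitotic genes carry no known read number, so their precision is unknown.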
